A study of Mus musculus with 16 samples.

Results

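RNA levels of 10 genes of the Notch pathway were compared between secretory-lineage cells and the other epithelial cells of crypt-enriched preparations of the mouse small intestine. The genes were selected by name, by their role in the pathway, and were matched to the Ensembl identifiers of the count files. They comprise the Delta-like ligands *Dll1* and *Dll4*, the Jagged ligands *Jag1* and *Jag2*, the receptors *Notch1* and *Notch2*, the receptor-modifying enzyme *Lfng*, the targets *Hes1* and *Nrarp*, and *Hes6*. All 10 were among the 45513 genes in the files, and all 10 were among the 15323 that passed the filter on low counts.

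The cells came from the small intestine of 8 *Atoh1*(WT)CreERT2 R26RtdTom mice, and each mouse gave 1 library of EpCAM+tdTom+ cells and 1 library of EpCAM+tdTom- cells (16 libraries). These mice are homozygous for a CreERT2 inserted downstream of the *Atoh1* coding sequence and carry 1 copy of a tdTomato reporter at the Rosa26 locus. The *Atoh1* locus therefore drives the recombinase, and tdTom+ marks cells that expressed *Atoh1* at the time of tamoxifen together with their progeny. All the animals were adults that carried the same alleles and received tamoxifen, so both fractions share them and no untreated or Cre-negative group enters the comparison. Per the labels, and in the study's methods for its secretory signature, the mice were given a daily dose of 1 mg tamoxifen for 3 days in a row, although the RNA sequencing paragraph of those methods names a single injection. Both fractions were sorted as EpCAM+, a surface mark of epithelium. By the study's methods, the tissue was proximal small intestine, its crypt-enriched fractions were pooled and the villus-enriched one was left out.

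Notch signalling passes between touching cells. A Delta-like or Jagged ligand on one cell pulls on a Notch receptor of its neighbour, the receptor is cut, and its intracellular part enters the nucleus, where it joins RBPJ and switches on targets such as *Hes1*. In the intestinal crypt, cells with active Notch express HES1, which represses *Atoh1*, and stay on the absorptive or stem cell path, while cells that escape the signal express ATOH1 and enter the secretory lineage, which includes goblet, Paneth and enteroendocrine cells. Ligand-bearing secretory cells are thereby a source of the signal for their neighbours, and Delta-like ligands are needed to maintain intestinal stem cells.

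The libraries held 17116405 to 25323567 counts assigned to genes, so 3 counts, the floor used for a gene at 0, correspond to 0.123 to 0.191 CPM (the count scaled to a common library size). CPM values were normalised by TMM (trimmed mean of M-values). *Atoh1* reached 62.5 ± 12.7 CPM in the tdTom+ fraction against 0.718 ± 0.247 CPM in the tdTom- fraction (mean ± SD, n = 8 each), and *Epcam* 942 ± 56.6 and 1019 ± 53.8 CPM. Of 8 markers each, all 8 goblet, 8 Paneth and 8 enteroendocrine markers were higher in tdTom+ cells, as were 7 tuft markers (8 with the replicate block, *Sh2d6* being the other), and all 8 absorptive markers were lower. The test called 22.7% of all tested genes higher and 27.0% lower, and with the block 55.8% in either direction. The study's staining soon after a single tamoxifen pulse found no tdTom in tuft or enteroendocrine cells, though enteroendocrine cells carried it days later. Per the labels, dosing here was spread over 3 days, so the times differ. The library of tdTom- cells from mouse 7 stood apart, with the highest summed stem (782 CPM, median of the fraction 518 CPM) and proliferation marker levels (784 CPM, median 539 CPM) of that fraction and its lowest absorptive sum (14550 CPM, median 32680 CPM). The tdTom+ library of mouse 7 was also extreme. It had the lowest goblet (128104 CPM, median 193701 CPM) and absorptive sums (1563 CPM, median 3595 CPM) of its fraction. Its Paneth sum was the highest (139451 CPM, median 77450.5 CPM). Values without mouse 7 are given where they matter. As in any bulk sample, fewer expressing cells and less RNA per cell cannot be told apart.

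Of the 10 genes, 6 differed between the fractions at an adjusted p below 0.01, 4 of them higher in tdTom+ cells and 2 lower (edgeR quasi-likelihood test, Benjamini-Hochberg adjustment over all genes tested). In the background of all tested genes 49.6% passed the same test, 22.7% as higher and 27.0% as lower. When mouse entered the fit as a replicate block, the same 6 genes passed, beside 55.8% of all tested genes. The higher genes were *Dll1*, *Dll4*, *Lfng* and *Hes6*, and the lower ones were *Jag1* and *Nrarp*. *Jag2*, *Notch1*, *Notch2* and *Hes1* did not pass. For 5 of the 10 genes the 8 tdTom+ and 8 tdTom- libraries did not overlap, 4 higher and 1 lower, where 31.6% of all tested genes had no overlap (14.6% higher and 17.0% lower). The median log2 fold change of the 10 genes was 0.10, beside 0.0087 over all genes tested.

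**Figure D1:**
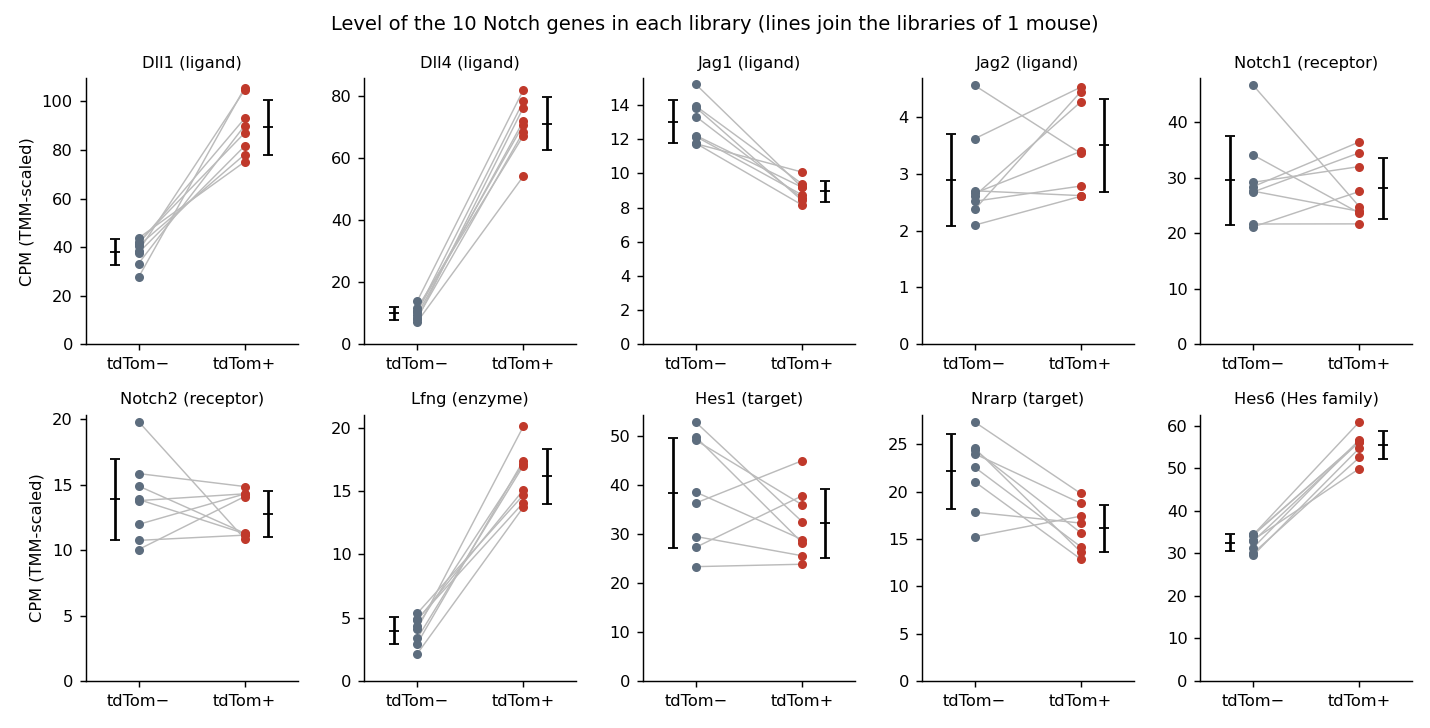
Level of each of the 10 genes in CPM (vertical axes from 0, 1 scale per gene) in the 8 tdTom- (grey) and 8 tdTom+ (red) libraries, with lines joining the libraries of 1 mouse and bars for mean ± SD. The points of *Dll1*, *Dll4*, *Lfng* and *Hes6* lie higher in every tdTom+ library than in any tdTom- library, those of *Jag1* lie lower, and the other 5 genes overlap.

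The promoters of the Delta-like ligands, which were both higher in tdTom+ cells, and of *Nrarp*, the target that was lower, are shown because RBPJ and the Hes proteins act on such windows. They are the reference sequences of RefSeq (GRCm38.p6), from 250 bases before to 50 bases after a start site, and 3 of the 4 genes looked up were matched, *Hes1* being the other. Capitals mark an N-box (CACNAG, a motif bound by Hes proteins, or its reverse complement CTNGTG) or the E-box CAGCTG, a class of motif bound by basic helix-loop-helix factors such as ATOH1. *Dll1* has windows at 2 start sites, chr17:15375774-15376073 and chr17:15376883-15377182, both on the minus strand. *Dll4* lies on the plus strand at chr2:119325534-119325833 and *Nrarp* on the plus strand at chr2:25180508-25180807.
Dll1, first window: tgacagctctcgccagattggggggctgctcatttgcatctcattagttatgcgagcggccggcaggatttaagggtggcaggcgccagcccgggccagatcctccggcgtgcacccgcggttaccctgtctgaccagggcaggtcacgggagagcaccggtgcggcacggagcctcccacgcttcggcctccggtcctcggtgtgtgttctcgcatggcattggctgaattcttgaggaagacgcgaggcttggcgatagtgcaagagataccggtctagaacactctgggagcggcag
Dll1, second window: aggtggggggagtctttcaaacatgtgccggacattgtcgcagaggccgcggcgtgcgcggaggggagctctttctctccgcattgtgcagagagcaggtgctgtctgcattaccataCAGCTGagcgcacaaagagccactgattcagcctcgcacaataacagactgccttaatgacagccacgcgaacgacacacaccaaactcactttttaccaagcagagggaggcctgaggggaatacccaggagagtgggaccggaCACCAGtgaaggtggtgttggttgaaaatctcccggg
Dll4: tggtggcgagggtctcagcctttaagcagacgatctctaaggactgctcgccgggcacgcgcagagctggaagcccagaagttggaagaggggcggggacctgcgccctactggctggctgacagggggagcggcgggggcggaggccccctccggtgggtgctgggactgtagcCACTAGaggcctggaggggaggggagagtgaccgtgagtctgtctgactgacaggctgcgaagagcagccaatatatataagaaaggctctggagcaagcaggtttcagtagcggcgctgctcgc
Nrarp: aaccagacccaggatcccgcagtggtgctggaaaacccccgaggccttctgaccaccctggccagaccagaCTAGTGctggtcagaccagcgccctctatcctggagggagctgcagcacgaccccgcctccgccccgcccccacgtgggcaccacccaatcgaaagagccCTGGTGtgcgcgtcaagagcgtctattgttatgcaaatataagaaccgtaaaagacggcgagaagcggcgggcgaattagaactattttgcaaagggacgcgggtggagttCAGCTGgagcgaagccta

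None of the motifs was found in the first *Dll1* window, and the second holds the E-box 132 bases before the start site and an N-box 14 bases after it. The *Dll4* window holds an N-box 75 bases before the start site. The *Nrarp* window holds N-boxes on the opposite strand 179 and 79 bases before the start site and the E-box 33 bases after it. Both strands were searched, and overlaps between motifs were allowed. N-boxes occur in 42.5% and the E-box in 16.3% of the 32851 promoter windows of the table, so the matches are a description of these sequences and not evidence of a bound site. The core RBPJ motif TGGGAA, present in 25.6% of all windows, was not found in these 4 windows, which says only that these letters are not in them.

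Both Delta-like ligands were higher in the secretory-lineage cells, and *Dll4* differed more than *Dll1*. *Dll1* (ENSMUSG00000014773, chr17:15367354-15376872, GRCm38, minus strand) ranged from 75.1 to 106 CPM with a median of 88.5 in tdTom+ libraries and from 27.5 to 43.7 CPM with a median of 39.5 in tdTom- libraries. The groups did not overlap, and tdTom- cells held 42.6% of the tdTom+ level. The log2 fold change was 1.23 ± 0.10 (SE, n = 8 mice, edgeR adjusted p = 2.9e-09), with higher levels in tdTom+ cells in 8 of 8 mice. Mouse 7 gave the lowest tdTom- and the highest tdTom+ value of *Dll1*. It also gave the largest difference within a mouse, at 1.93 on the log2 scale, and without this mouse the log2 fold change was 1.14.

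*Dll4* (ENSMUSG00000027314, chr2:119325784-119335962, plus strand) ranged from 54.1 to 81.9 CPM with a median of 71.3 in tdTom+ cells and from 7.22 to 13.9 CPM with a median of 9.95 in tdTom- cells. It rose by 2.83 ± 0.12 on the log2 scale (SE, n = 8, edgeR adjusted p = 7.2e-13), in 8 of 8 mice and without overlap. The tdTom- level was 14.1% of the tdTom+ level. For comparison, the residual level in tdTom- cells was 0.534% for the goblet cell mucin *Muc2*, 0.571% for the Paneth cell lysozyme *Lyz1*, 1.15% for *Atoh1*, 6.38% for the endocrine progenitor factor *Neurog3* and 30.9% for the endocrine granule protein *Chga*. The residual levels of *Dll1* and *Dll4* were thus above those of the goblet and Paneth genes and on either side of that of *Chga*.

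The ratio of *Dll4* to *Dll1* reads within a library was 0.795 in tdTom+ and 0.262 in tdTom- cells (geometric means). The difference of 1.60 on the log2 scale had a 95% interval of 1.42 to 1.79 over the 8 differences within mice. It was larger than the spread between libraries when mice were not paired (two-sided exact permutation test over 12870 assignments, n = 8 against 8, p = 1.6e-04, the smallest this test allows, and 3.6e-04 adjusted over 7 ratios). With mice paired, an exact sign-flip test over 256 sign patterns gave p = 0.00781, the smallest it allows, and 0.0109 adjusted. The *Dll4* to *Dll1* ratio was higher in tdTom+ cells in all 8 mice and the fractions did not overlap. The paired test gave the same values for *Jag2*/*Jag1*, *Hes6*/*Hes1*, *Lfng*/*Notch1* and *Dll1*/*Notch1*, reported below, and an adjusted p of 0.656 for *Notch2*/*Notch1*.

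The Jagged ligands did not share this pattern. *Jag1* (ENSMUSG00000027276, chr2:137081456-137116644, minus strand) ranged from 8.15 to 10.1 CPM with a median of 8.96 in tdTom+ cells and from 11.7 to 15.2 CPM with a median of 12.8 in tdTom- cells. It was lower in tdTom+ cells in 8 of 8 mice and the groups did not overlap, with a log2 fold change of -0.54 ± 0.07 (SE, n = 8, edgeR adjusted p = 3.1e-06).

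*Jag2* (ENSMUSG00000002799, chr12:112908590-112929495, minus strand) was the least abundant of the ligands, from 2.61 to 4.53 CPM with a median of 3.38 in tdTom+ cells and from 2.098 to 4.56 CPM with a median of 2.64 in tdTom- cells. The ranges overlapped widely. The log2 fold change of 0.28 ± 0.17 (SE, n = 8) did not pass the test (edgeR adjusted p = 0.185), its 95% interval ran from -0.06 to 0.62, and 6 of 8 mice had the higher level in tdTom+ cells. The difference between the Jagged ligands was tested directly by their ratio within a library, which was 0.389 in tdTom+ and 0.223 in tdTom- cells, a log2 difference of 0.81 with a 95% interval of 0.43 to 1.19 (exact permutation test, n = 8 against 8, adjusted p = 0.00283). It was higher in 8 of 8 mice, with overlap between the fractions.

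Per exonic length, the Delta-like genes made up 94.2% ± 0.777 of the summed level of the 4 ligands in tdTom+ cells and 79.5% ± 2.78 in tdTom- cells (SD, n = 8), from RPKM, which divides the scaled count by exonic length and depth. Within the Delta-like pair, *Dll4* contributed 46.6% ± 2.95 in tdTom+ and 22.3% ± 3.06 in tdTom- cells.

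**Figure D2:**
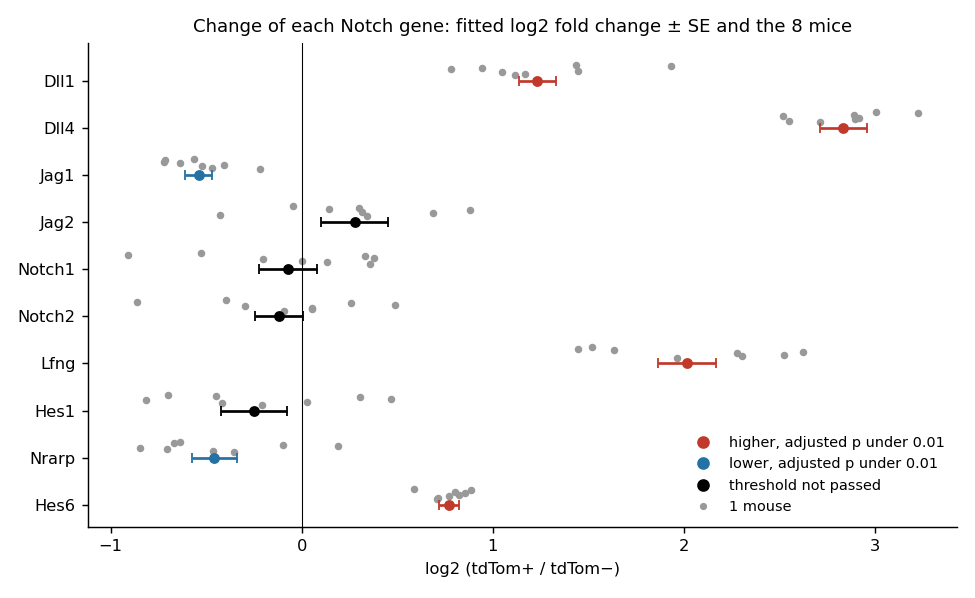
Log2 fold change of each gene, tdTom+ over tdTom-, with its SE (large points and bars, edgeR) and the log2 ratio within each of the 8 mice (small grey points). *Dll4*, *Lfng*, *Dll1* and *Hes6* lie to the right of 0 in all 8 mice, *Jag1* lies to the left in all 8, and *Notch1*, *Notch2* and *Hes1* have mice on both sides.

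Both receptors were detected in every library of both fractions, and neither passed the test for a difference. *Notch1* (ENSMUSG00000026923, chr2:26457903-26516663, minus strand) ranged from 21.7 to 36.4 CPM with a median of 26.1 in tdTom+ cells and from 21.1 to 46.6 CPM with a median of 28.0 in tdTom- cells. Its log2 fold change was -0.07 ± 0.15 (SE, n = 8, edgeR adjusted p = 0.699), with a 95% interval of -0.37 to 0.22, and the tdTom+ level was the higher one in 5 of 8 mice. *Notch2* (ENSMUSG00000027878, chr3:98013527-98150361, plus strand) ranged from 10.9 to 14.9 CPM with a median of 12.7 in tdTom+ cells and from 10.05 to 19.8 CPM with a median of 13.8 in tdTom- cells. The exons of *Notch2* overlap on the same strand with *Gm42820*, which had at most 8 counts in a library.

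The log2 fold change of *Notch2* was -0.12 ± 0.13 (SE, n = 8, edgeR adjusted p = 0.439), with a 95% interval of -0.37 to 0.13 and 4 of 8 mice on each side. The highest value of each receptor came from the tdTom- library of mouse 7, where the log2 ratio within the mouse was -0.91 for *Notch1* and -0.86 for *Notch2*. Without this mouse the log2 fold changes were 0.078 and 0.0045, so the sign of both changed with 1 mouse. The part of the stem and proliferation markers of that library in these values was not tested. The ratio of *Notch2* to *Notch1* reads was 0.461 in tdTom+ and 0.476 in tdTom- cells, a log2 difference of -0.05 with a 95% interval of -0.20 to 0.11 (exact permutation test, n = 8 against 8, adjusted p = 0.492).

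*Lfng* encodes Lunatic fringe, a Golgi glycosyltransferase that adds a sugar to the Notch receptor and alters its response to ligands, favouring Delta-like over Jagged ligands. *Lfng* (ENSMUSG00000029570, chr5:140607320-140615545, plus strand) ranged from 13.7 to 20.1 CPM with a median of 16.04 in tdTom+ cells and from 2.15 to 5.34 CPM with a median of 4.20 in tdTom- cells. The groups did not overlap, and the level in tdTom+ cells was higher in 8 of 8 mice by 2.02 ± 0.15 on the log2 scale (SE, n = 8, edgeR adjusted p = 1.9e-09). Mouse by mouse the log2 ratio ran from 1.44 in mouse 7 to 2.62 in mouse 5.

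*Lfng* was also compared with its substrate. The ratio of *Lfng* to *Notch1* reads was 0.583 in tdTom+ and 0.137 in tdTom- cells, a log2 difference of 2.09 with a 95% interval of 1.73 to 2.45 (exact permutation test, n = 8 against 8, adjusted p = 3.6e-04). The ratio of *Dll1* to *Notch1* reads was 3.21 in tdTom+ and 1.31 in tdTom- cells, a log2 difference of 1.29 with a 95% interval of 0.61 to 1.97 (exact permutation test, n = 8 against 8, adjusted p = 3.6e-04). Both ratios were higher in 8 of 8 mice without overlap of the fractions. Mouse 7 gave the largest difference of the *Dll1* to *Notch1* ratio, at 2.84 on the log2 scale. Without this mouse the mean difference was 1.07 (exact permutation test, adjusted p = 0.00136).

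**Figure D3:**
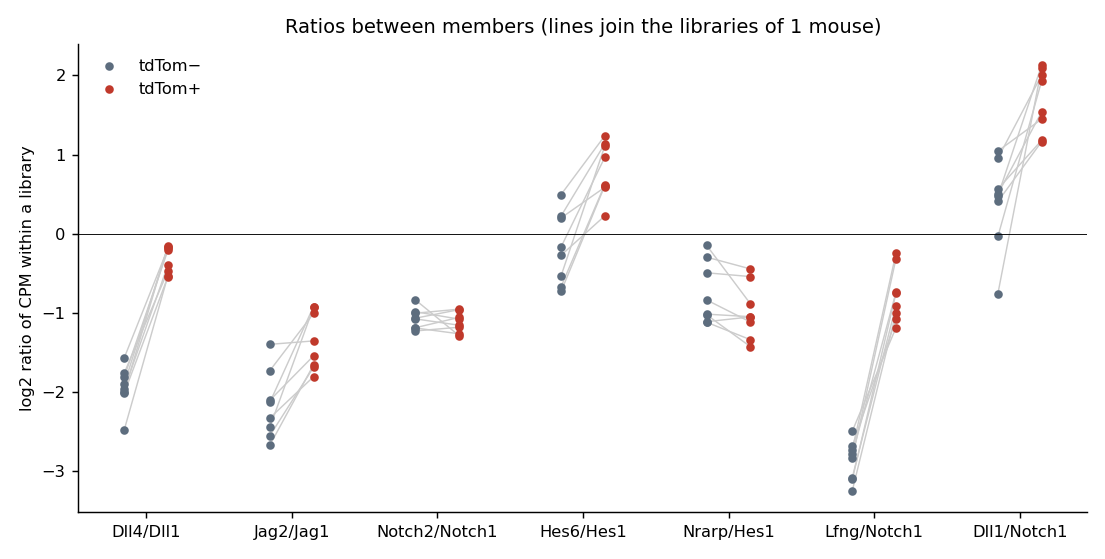
Log2 ratio of the CPM of 2 genes within each library, for the 7 ratios tested, in tdTom- (grey) and tdTom+ (red) cells, with lines joining the libraries of 1 mouse. The fractions are apart for *Dll4*/*Dll1*, *Lfng*/*Notch1* and *Dll1*/*Notch1*, overlap while shifting upwards in 8 of 8 mice for *Jag2*/*Jag1* and *Hes6*/*Hes1*, and overlap for *Notch2*/*Notch1* and *Nrarp*/*Hes1*.

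*Hes1* encodes the repressor through which Notch keeps *Atoh1* off. *Hes1* (ENSMUSG00000022528, chr16:30064384-30067796, plus strand) ranged from 23.8 to 45.0 CPM with a median of 30.7 in tdTom+ cells and from 23.3 to 52.8 CPM with a median of 37.4 in tdTom- cells. The ranges overlapped over nearly their whole width, and *Hes1* RNA was present in every tdTom+ library. The log2 fold change was -0.25 ± 0.17 (SE, n = 8) and did not pass the test (edgeR adjusted p = 0.227). Its 95% interval ran from -0.58 to 0.09, and 3 of 8 mice had the higher level in tdTom+ cells.

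*Nrarp* encodes an ankyrin repeat protein that is induced by Notch and dampens its signal by acting on the receptor's intracellular part. *Nrarp* (ENSMUSG00000078202, chr2:25180758-25183339, plus strand) ranged from 12.9 to 19.8 CPM with a median of 16.2 in tdTom+ cells and from 15.3 to 27.4 CPM with a median of 23.3 in tdTom- cells. It fell by 0.46 on the log2 scale in tdTom+ cells (SE 0.12, n = 8, edgeR adjusted p = 0.00254), in 7 of 8 mice, with overlapping groups. This call depended on single mice. Without mouse 3, mouse 4 or mouse 8 the log2 fold change was -0.32, -0.40 or -0.43 with an edgeR adjusted p of 0.0383, 0.0132 or 0.0107.

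Whether the targets responded alike was asked with the ratio of *Nrarp* to *Hes1* reads. It was 0.507 in tdTom+ and 0.593 in tdTom- cells, a log2 difference of -0.23 with a 95% interval of -0.44 to -0.01, lower in 7 of 8 mice. The difference was within the spread between libraries when mice were not paired (exact permutation test, n = 8 against 8, adjusted p = 0.276) and passed the threshold of 0.05 when they were (exact sign-flip test over 256 sign patterns, adjusted p = 0.0365).

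*Hes6* belongs to the Hes family but is known as an antagonist of HES1 and a promoter of differentiation, and is not induced by Notch in the way *Hes1* is. *Hes6* (ENSMUSG00000067071, chr1:91411483-91414038, minus strand) ranged from 49.9 to 60.9 CPM with a median of 56.2 in tdTom+ cells and from 29.6 to 34.4 CPM with a median of 33.1 in tdTom- cells. The groups did not overlap, and the log2 fold change of 0.77 ± 0.05 (SE, n = 8, edgeR adjusted p = 5.8e-10) was seen in 8 of 8 mice. The tdTom- level was 58.6% of the tdTom+ level. The ratio of *Hes6* to *Hes1* reads was 1.75 in tdTom+ and 0.882 in tdTom- cells, a log2 difference of 0.99 with a 95% interval of 0.63 to 1.35 (exact permutation test, n = 8 against 8, adjusted p = 5.4e-04), higher in 8 of 8 mice with overlap between the fractions.

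The order of the 10 genes by level was also set from RPKM. In tdTom+ cells *Hes6* was first at 30.7 ± 1.79 RPKM (SD, n = 8), followed by *Dll1* at 21.2 ± 2.70, *Dll4* at 18.4 ± 2.21 and *Hes1* at 15.8 ± 3.47. *Lfng* and *Nrarp* followed at 6.45 ± 0.858 and 6.25 ± 0.964 RPKM, and *Notch1*, *Jag1*, *Notch2* and *Jag2* ended the order at 1.97 ± 0.390, 1.54 ± 0.107, 1.18 ± 0.163 and 0.864 ± 0.201 RPKM. Neighbours in this order whose difference was under the larger of their SDs on the log2 scale were *Dll4* and *Hes1*, and *Lfng* and *Nrarp*.

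In tdTom- cells *Hes1* and *Hes6* led, with *Hes1* at 18.8 ± 5.52 and *Hes6* at 18.0 ± 1.08 RPKM, then *Dll1* at 9.02 ± 1.26 and *Nrarp* at 8.57 ± 1.53 RPKM. *Dll4*, *Jag1*, *Notch1*, *Lfng* and *Notch2* followed at 2.59 ± 0.561, 2.24 ± 0.216, 2.07 ± 0.565, 1.59 ± 0.432 and 1.29 ± 0.291 RPKM, and each of these 5 differed from its neighbour within the group by less than the spread, as did *Hes1* from *Hes6* and *Dll1* from *Nrarp*. *Jag2* was last at 0.714 ± 0.198 RPKM. *Dll4* thus stood beside *Hes1* in tdTom+ cells and beside *Jag1* in tdTom- cells.

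**Figure D4:**
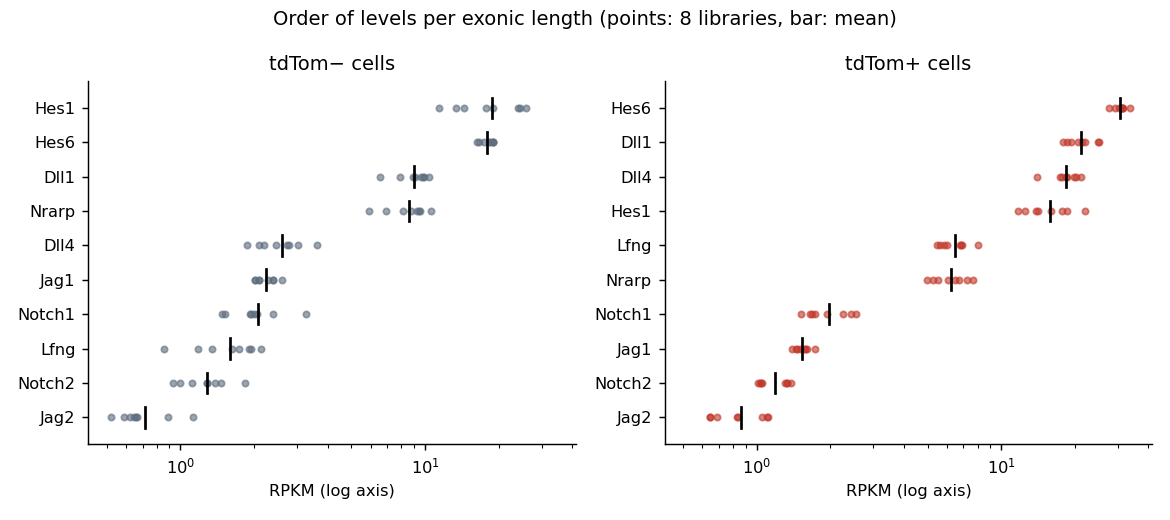
Level of the 10 genes per exonic length (RPKM, log axis) in tdTom- (left) and tdTom+ (right) cells, ordered by the mean (bar) of the 8 libraries (points). *Dll1* and *Dll4* follow *Hes6* in tdTom+ cells at 21.2 and 18.4 RPKM, while *Hes1* and *Hes6* lead in tdTom- cells at 18.8 and 18.0 RPKM.

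The genes whose log2 CPM followed each of 5 members most closely over the 16 libraries were taken from 8940 genes of at least 10 CPM on average. They were *Tbc1d30* and *Maged2* for *Dll1* (Pearson's r = 0.98 for each), *Gcnt3* and *Rcan3* for *Dll4* (0.995 each), *Nek7* and *Eif2ak4* for *Lfng* (0.983 each), *Glrx3* and *Vars2* for *Hes1* (0.897 each), and *Eed* (0.891) and *Plce1* (0.89) for *Nrarp*. These correlations are descriptions. The libraries fall into 2 fractions, so for the members that differ between them the likeness largely restates that difference.

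The other parts of the pathway were described with a list of 49 further genes, ordered by role. Of these, 39 passed the filter and 22 of them passed the test, 14 as higher and 8 as lower in tdTom+ cells. *Dll3*, *Mfng*, *Neurl1a*, *Aph1c*, *Numbl*, *Dtx3* and *Heyl* fell short of the level set by the filter in at least 1 tdTom- library and were carried past it mostly by tdTom+ libraries, where they were high. The test of these 7 genes, all higher in tdTom+ cells, is therefore tied to the filter, and their values are a description. Of the other 32 genes, 15 passed, 7 as higher and 8 as lower, beside 49.6% of all genes tested. The 10 genes below the filter were *Dlk1*, *Dlk2*, *Notch3*, *Maml2*, *Dtx1*, *Hes3*, *Hes5*, *Hes7*, *Hey1* and *Hey2*. The classical Notch targets *Hes5*, *Hey1* and *Hey2* could not be compared, with at most 6 counts in any library.

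Among other ligands, *Dll3*, a divergent Delta-like protein that does not activate Notch in a neighbour, had 33 to 94 counts in each tdTom+ library and 0 to 3 in each tdTom- library. The summed reads, 447 against 9, gave a depth-corrected ratio of 50.3 with a 95% counting interval of 26.3 to 111 (exact binomial, counting error only). That interval leaves out the spread between mice, and *Dll3* passed the filter only through tdTom+ libraries. Its values are therefore a description. The ligand-like *Dner* rose by 1.83 ± 0.27 on the log2 scale (edgeR adjusted p = 1.0e-05), from 1.18 ± 0.406 to 4.19 ± 1.64 CPM (SD, n = 8). *Dner* was without overlap between the fractions, as were 31.6% of all tested genes.

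The receptor *Notch4* reached 5.44 ± 1.20 CPM in the tdTom+ fraction against 1.69 ± 0.528 CPM in the tdTom- fraction (log2 fold change 1.68 ± 0.19, edgeR adjusted p = 2.4e-07), without overlap. *Notch4* and *Dll4* are also known from endothelium, so 8 endothelial markers were examined. Their summed level was 5.26 to 7.11 CPM in tdTom+ and 1.94 to 4.90 CPM in tdTom- libraries. *Esam* passed the test, with a log2 fold change of 1.22. *Pecam1*, *Tek* and *Egfl7* were detected in every tdTom+ library, with log2 fold changes of 0.32, 0.85 and 0.54 that did not pass (edgeR adjusted p = 0.329, 0.0387 and 0.24). The other 4, *Cdh5*, *Kdr*, *Emcn* and *Cldn5*, had 0 counts in all tdTom+ libraries and at most 7 in a tdTom- library. The part of endothelial RNA in the *Dll4* and *Notch4* levels was not tested. Summed stromal markers were at 3.17 to 4.66 CPM in tdTom+ and 2.47 to 4.52 CPM in tdTom- libraries.

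Immune markers other than *Lyz2*, a close paralog of the Paneth gene *Lyz1*, summed to 5.46 to 24.6 CPM in tdTom+ and 9.24 to 130 CPM in tdTom- libraries, and were highest in the tdTom- libraries of mouse 8 and mouse 7. Their part in the *Notch1*, *Notch2* and *Nrarp* levels was not tested. Of the 8 stem markers 3 were higher in tdTom+ cells (4 with the replicate block, *Smoc2* being the other) and none of the 8 proliferation markers passed the test in either direction (edgeR). Of all genes tested, 22.7% passed as higher and 27.0% as lower, and 55.8% in either direction with the block.

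Among the glycosylation enzymes are the other fringe genes. *Mfng* (Manic fringe) had 0.993 ± 0.413 CPM in tdTom+ against 0.303 ± 0.174 CPM in tdTom- cells, with 2 to 14 counts in a tdTom- library and a test tied to the filter, while *Rfng* (Radical fringe), the more abundant of the pair, was lower at 25.2 ± 2.76 against 42.9 ± 6.20 CPM (log2 fold change -0.77 ± 0.10, edgeR adjusted p = 1.2e-06). The O-fucosyltransferase *Pofut1* and the O-glucosyltransferase *Poglut1*, which prime the receptor, did not pass the test.

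Ligand endocytosis is the step that lets a ligand pull on its receptor. Of its 4 ubiquitin ligases, *Mib1*, *Mib2* and *Neurl1b* passed the test, in both directions. Of all genes tested, 49.6% passed. *Neurl1a*, whose test was tied to the filter, rose by 2.49 ± 0.27 on the log2 scale. *Mib1* rose by 0.51 ± 0.08 (edgeR adjusted p = 1.3e-05) without overlap, where 31.6% of all tested genes had no overlap. *Mib2* fell by 0.88 and *Neurl1b* by 0.68 on the log2 scale. In CPM, *Mib1*, the main activator of Delta-like ligands, was the most abundant of the 4, at 80.5 ± 8.77 in tdTom+ and 56.4 ± 5.51 in tdTom- cells (SD, n = 8).

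**Figure D5:**
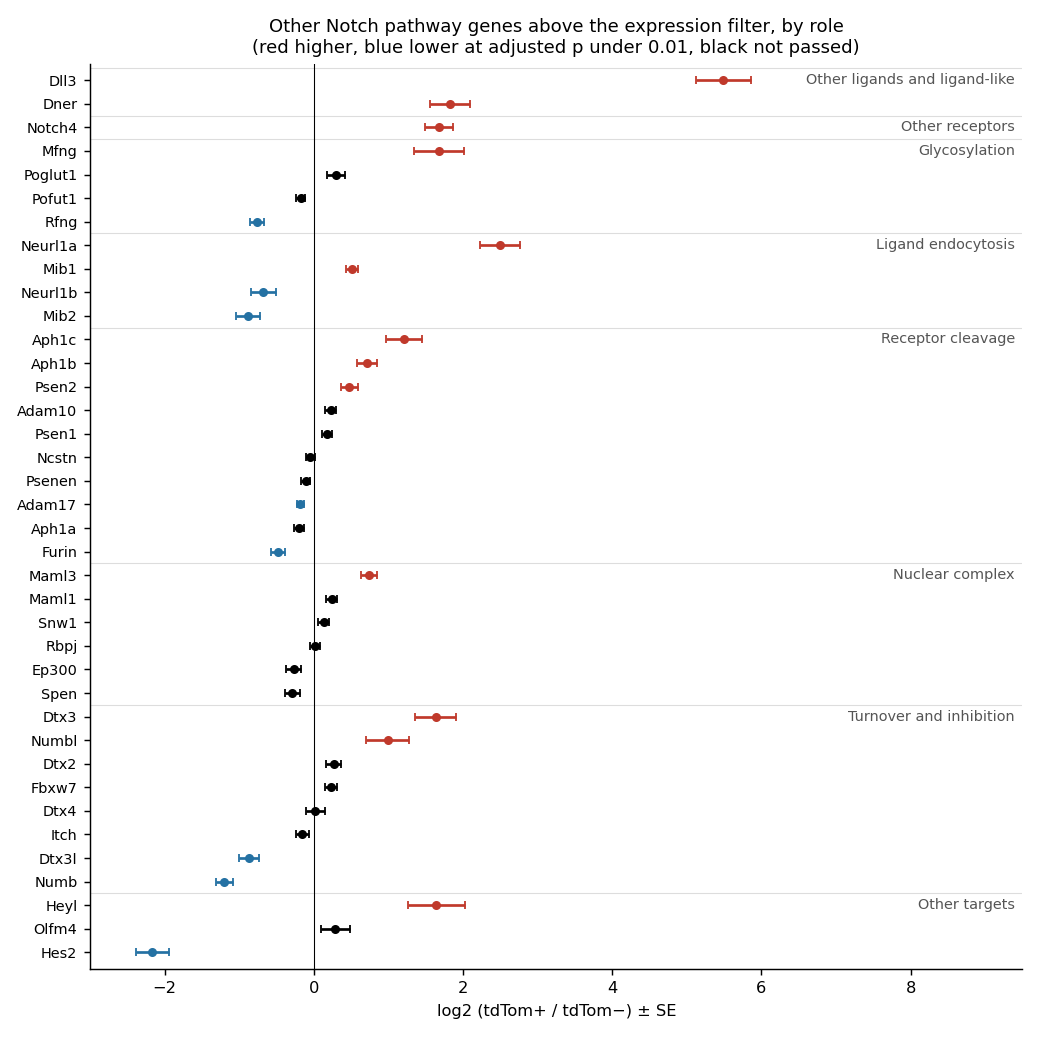
Log2 fold change ± SE (edgeR), tdTom+ over tdTom-, of 38 of the 39 other pathway genes that passed the filter, grouped by role, with genes higher at an adjusted p under 0.01 in red, lower in blue and not passing in black. *Dll3* lies farthest to the right and *Hes2* farthest to the left, and the genes of receptor cleavage and the nuclear complex lie closer to 0.

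Of the 10 genes of receptor cleavage, 3 were higher, counting *Aph1c*, and 2 lower, beside 22.7% and 27.0% of all genes tested. *Aph1c* and *Aph1b* rose by 1.21 ± 0.24 and 0.71 ± 0.13 on the log2 scale. They are close paralogs among the subunits of gamma-secretase whose reads can be divided between copies, so both values are uncertain. *Aph1b* had an edgeR adjusted p of 1.3e-04, while the test of *Aph1c* was tied to the filter. *Psen2*, a catalytic subunit, rose by 0.47, and the proteases *Furin* and *Adam17* fell by 0.49 and 0.19. The protease that makes the ligand-induced cut, *Adam10*, had a log2 fold change of 0.23 and did not pass (edgeR adjusted p = 0.0135), nor did *Aph1a* at -0.20 (edgeR adjusted p = 0.0117). With mice as a replicate block both passed, at edgeR adjusted p = 0.00836 and 0.00756.

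In the nuclear complex, *Rbpj* itself had 25.9 ± 1.93 CPM in the tdTom+ fraction against 25.6 ± 2.15 CPM in the tdTom- fraction (log2 fold change 0.02 ± 0.06, edgeR adjusted p = 0.833). The coactivator *Maml3* rose by 0.74 ± 0.11 on the log2 scale (edgeR adjusted p = 8.0e-06), without overlap. *Ep300* and *Spen* had log2 fold changes of -0.27 and -0.29 that passed only with the replicate block (edgeR adjusted p = 0.007 and 7.2e-04 with it, and 0.0263 and 0.0203 without).

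Of 8 tested genes of turnover and inhibition, *Dtx3* (1.63 ± 0.27) and *Numbl* (0.99) were higher and *Numb* and *Dtx3l* were lower. Of all genes tested, 49.6% passed. The tests of *Dtx3* and *Numbl* were tied to the filter, so their values are a description. *Numb*, an inhibitor of Notch, fell by 1.20 on the log2 scale (SE 0.12, edgeR adjusted p = 4.8e-08), from 96.8 ± 19.3 CPM in tdTom- to 42.1 ± 4.39 CPM in tdTom+ cells, without overlap, and its paralog *Numbl* moved the opposite way at much lower levels of 0.407 ± 0.120 and 0.808 ± 0.373 CPM. *Dtx3l* fell by 0.88. Of the other Hes and Hey genes, *Heyl* had 1.00 ± 0.244 CPM in tdTom+ against 0.310 ± 0.276 CPM in tdTom- cells, again with a test tied to the filter.

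*Hes2* fell by 2.17 on the log2 scale (SE 0.22, edgeR adjusted p = 7.9e-08), from 20.5 ± 5.55 CPM in tdTom- to 4.57 ± 1.38 CPM in tdTom+ cells, without overlap. *Olfm4*, a stem cell gene that depends on Notch, was at 1304 ± 300.1 and 1067 ± 429.9 CPM in tdTom+ and tdTom- cells and did not pass (log2 fold change 0.29 ± 0.20, edgeR adjusted p = 0.225). *Hes7*, below the filter and so not tested, had 5 to 19 counts in each tdTom+ and 0 to 3 in each tdTom- library. Its summed reads, 100 against 12, gave a depth-corrected ratio of 8.44 with a 95% counting interval of 4.63 to 16.9 (exact binomial, counting error only). *Hes7* was higher in tdTom+ cells in 8 of 8 mice without overlap. The interval leaves out the spread between mice, so these values are a description.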

How the data were processed

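RNA was measured in 16 libraries (TruSeq Stranded mRNA), with the fraction taken from the group label and the mouse from the number in the title. Reads were aligned by the authors to GRCm38 (GRCm38.p3 in the submitters' processing notes) with TopHat2 2.1.1. The deposited values are raw counts per Ensembl gene, summed over exons on the reverse strand from primary alignments by featureCounts, whose version is 1.5.0-p1 per the file headers and Subread 1.5.2 in those notes. Exonic length came from the same files. Of the 45513 identifiers, 44585 were given a symbol from the supplied gene name table.

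Genes were filtered with filterByExpr of edgeR 4.0.16 in R 4.3.3, libraries were scaled with TMM factors, and all 15323 genes were tested with the edgeR quasi-likelihood F-test on the fraction, with an adjusted p threshold of 0.01. SE is the log2 fold change divided by the square root of F, and its 95% interval is approximate. The biological coefficient of variation was 19.9%. Log2 ratios used a prior count of 2 and exact tests by SciPy 1.17.1, with a threshold of 0.05. The fit was tested on simulated data.

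By the design text, each mouse supplied both fractions. Deviations from the fraction mean correlated at 0.426 on average within mice (0.245 to 0.634) and -0.0569 between mice, and for 8 of 8 mice the own library was the best match, so the numbers pair the libraries. The fit without a block followed the methods of the study, which name none, and the blocked value is given where it changed a call that the text prints. Total counts set the precision, and no 2 libraries were identical.

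The named genes are the 10 members, *Atoh1* and *Epcam*, every other pathway gene past the threshold whose log2 fold change reached 1 in size, those of the nuclear and cleavage roles with the largest change, and the genes most like 5 members. Others were named after their values were seen. The members, lists, roles and marker panels were chosen with earlier results of these data known. Labels give no sequencing batch. 1 gene of the pathway list is counted but not reported here.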

Additional observations from a re-analysis of the deposited data

How the results depend on the processing

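Fits were repeated with other scalings, filters and tools (DESeq2 1.42.0, limma-voom), with thinned counts and without each mouse in turn, and the fit with DESeq2 and the replicate block was added after the data had been seen. Of 190 repeats of the members' fold changes, 182 kept the direction and the side of the threshold, as did 75 of 77 for the ratios. The repeats of each member include a looser adjusted p threshold of 0.05 on the main fit. That setting could not change a direction or remove a call. *Dll1*, *Dll4*, *Jag1*, *Jag2*, *Lfng*, *Hes1* and *Hes6* kept both in all 19 repeats each, *Dll1* between 1.14 and 1.37, *Dll4* between 2.76 and 2.95, *Lfng* between 1.95 and 2.13 and *Jag1* between -0.60 and -0.42 on the log2 scale.

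*Notch1* turned positive at 0.046 among genes with at least 10 counts in every library and ranged from -0.14 to 0.078 without single mice, and *Notch2* from -0.20 to 0.0045. The log2 difference of the *Notch2* to *Notch1* ratio ranged from -0.070 to 0.013, highest without mouse 1. The filter of 10 counts moved the median of all genes by 0.119 and leaving out mouse 3 moved it by 0.103, and called genes then split into 3724 higher and 3042 lower, or 3960 and 3224, beside 3473 and 4133. Relative to the shift, *Notch1* was at -0.073 with that filter and at -0.079 without mouse 3. *Nrarp* was at -0.34 with that filter (edgeR adjusted p = 0.0195), which is -0.46 relative to the shift, and at -0.42 relative to the shift without mouse 3. Members lower in tdTom+ cells then numbered 1, and 1 to 2 without single mice. With a log2 fold change of 1 or more in size required, 0 members were lower (edgeR, *Jag1* and *Nrarp* being smaller), and 8 and 2 other pathway genes were higher and lower. Among the higher ones, *Dll3*, *Mfng*, *Neurl1a*, *Aph1c*, *Dtx3* and *Heyl* had tests tied to the filter. These counts are thus a description, without a share of all genes beside them. With the replicate block, edgeR called 8556 genes (55.8%) and changed no call of a member, with *Nrarp* at -0.45, and the paired test of the *Nrarp* to *Hes1* ratio (-0.23) had an adjusted p of 0.0365. The cause of these shifts was not tested. At this depth, *Hes5*, *Hey1* and *Hey2* could not be compared.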

Other observations

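Across mice, 8 relations between members within a fraction were examined, chosen after the data had been seen. *Notch1* and *Notch2* varied together, with Pearson's r = 0.914 in tdTom+ cells (n = 8, exact permutation p = 0.00293, adjusted p = 0.0117) and 0.934 in tdTom- cells (n = 8, exact permutation p = 0.00131, adjusted p = 0.0105). Spearman's rho was 0.81 (exact permutation p = 0.0218, adjusted p = 0.0871) and 0.881 (exact permutation p = 0.00724, adjusted p = 0.0579), which did not pass 0.05 after adjustment. Without the 2 mice farthest from the median of *Notch1*, r was 0.876 and 0.79. *Hes1* and *Notch1* gave r = 0.769 in tdTom- cells (n = 8, exact permutation p = 0.0192, adjusted p = 0.0513) and rho = 0.738 (exact permutation p = 0.0458, adjusted p = 0.122), which did not pass after adjustment, with r = 0.686 without mice 3 and 8, the farthest from the median of *Hes1*. The remaining 5 relations, among them *Dll1* with *Dll4* and *Hes1* with *Nrarp* in each fraction, did not pass either. The tdTom- library of mouse 7, high in stem and proliferation markers, had the highest *Notch1* and *Notch2* levels of its fraction.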
